A study of Saccharomyces cerevisiae with 18 samples.

Results

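Glycogen and trehalose are the storage carbohydrates of budding yeast. Glycogenin starts a glycogen chain, glycogen synthase extends it from UDP-glucose, and the branching enzyme adds branch points; glycogen phosphorylase and a glucoamylase take the polymer apart. Trehalose is made by a complex that joins UDP-glucose to glucose 6-phosphate and then removes the phosphate, and it is cleaved by trehalases. In yeast both stores build up as growth slows and under stress, and many of the genes carry stress response elements, the promoter sites of the transcription factors Msn2 and Msn4, whose activity is held down by protein kinase A.

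The 10 genes described here are GSY1 and GSY2 (glycogen synthase), GLG1 (glycogenin), GLC3 (branching enzyme), GPH1 (glycogen phosphorylase), SGA1 (glucoamylase), TPS1 (trehalose 6-phosphate synthase), TPS2 (trehalose 6-phosphate phosphatase), TSL1 (a large regulatory subunit of the trehalose synthase complex) and NTH1. NTH1 is here the neutral trehalase gene at locus YDR001C, not the yeast DNA glycosylase that the study calls Nth1. They were chosen by name, as the probe sets whose only gene symbol in the platform annotation was 1 of the 10. This gave 11 probe sets, 2 of them for SGA1, of 6504 probe sets with 1 symbol, which stand for 5656 genes. Every member had a value on all arrays and no filter on low values was applied. Where SGA1 is named without a probe set, it is the brighter of them, with the higher mean over all arrays.

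The series held 18 arrays of 6 haploid Saccharomyces cerevisiae strains, 3 per strain, in which the first enzymes of base excision repair were altered. All strains came from 1 MATa parent, BGY111, with his3, leu2, ura3-52 and trp1 markers, and all were grown in medium with galactose and without uracil, which selects the pYES vector that all of them carried, empty or with MAG under a galactose-driven promoter. Mag is the 3-methyladenine DNA glycosylase, which removes damaged bases, and Apn1 is the main endonuclease for the abasic sites that are left. The strains were Δapn1/pMAG/pAPN1 (apn1-1::HIS3 with pYepAPN1-2A and pYES-MAG), Δapn1/pAPN1 (apn1-1::HIS3 with pYepAPN1-2A and empty pYES), Δapn1/pMAG (apn1-1::HIS3 with pYES-MAG), Δapn1 (apn1-1::HIS3 with empty pYES), WT/pMAG (the parent with pYES-MAG) and WT (the parent with empty pYES). The replicates were cultures grown in triplicate, and no damaging agent was added. The RNA was that of whole cultures, so a change in some cells and in all cells cannot be told apart. Values are log2 signals, so a difference of 1 is a doubling, and since probe sets differ in brightness no gene's level is set against another's.

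MAG1 read 1.48 to 7.17 on the 9 arrays with pMAG, all above the 9 arrays without it (0.89 to 1.41). Replicates of 1 strain differed widely. MAG1 read 1.82 to 3.80 in Δapn1/pMAG/pAPN1, 1.82 to 7.17 in Δapn1/pMAG and 1.48 to 6.91 in WT/pMAG. The lowest of these, 1.48, lay below every array median and close to the highest array without pMAG. APN1 read 4.57 to 7.48 in Δapn1/pMAG/pAPN1 and 7.27 to 7.96 in Δapn1/pAPN1. It read 2.81 to 3.15 on the arrays labelled Δapn1 and 3.64 to 4.38 on those labelled Δapn1/pMAG, above the 1.14 to 1.88 of WT. In WT/pMAG it read 1.67 to 2.85. Where its probes lie relative to the insertion is not given in the sources used here, so this probe set does not check these labels. HIS3, the marker of the insertion, was higher in Δapn1 than in WT on both of its probe sets but overlapped WT/pMAG on both. The strains are called by their labels throughout. Probe sets of small nuclear, nucleolar and ribosomal RNA (76) split the arrays into 2 sets, 7 high and 11 low, a division that no label names. The high set held replicate 1 of Δapn1/pMAG, replicates 2 and 3 of Δapn1, replicates 1 and 3 of WT/pMAG and replicates 2 and 3 of WT. Galactose growth genes (GAL1, GAL2, GAL7 and GAL10) averaged 6.64 to 9.88 on every array. The 15 sporulation markers averaged 1.21 to 1.44, below the array medians of 1.63 to 1.72.

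SGA1 was the member that separated the strains. It was higher on every array with pMAG than on any array without it, in each background. Its signals were 3.61, 3.36 and 3.66 in Δapn1/pMAG/pAPN1, against 2.87, 2.88 and 2.85 in Δapn1/pAPN1. They were 3.81, 3.47 and 4.14 in Δapn1/pMAG, against 2.76, 3.21 and 3.10 in Δapn1, and 3.99, 3.84 and 3.80 in WT/pMAG, against 2.82, 3.03 and 2.94 in WT. The lowest of the 9 arrays with pMAG (3.36, replicate 2 of Δapn1/pMAG/pAPN1) lay above the highest of the other 9 (3.21, replicate 2 of Δapn1). Of all probe sets, 18 (0.277%) were placed in this way, and SGA1 was the only gene of the 10 among them. The glucoamylase is known from sporulating diploids, where it releases glucose from glycogen. The strains here were MATa haploids, and the 15 sporulation markers averaged below every array median. Their differences therefore cannot show whether SGA1 was tied to sporulation. The median difference of the 15 markers was -0.01 with pMAG. By limma 0 of the 15 passed a call rule for the mean effect of pMAG, and 1, DIT1 (0.29), had an unadjusted p under 0.05. In single comparisons 1 of the 15, NDT80, passed an unadjusted p under 0.05 with at least 1.5-fold. It was higher in Δapn1 than in WT, where 0.231% of probe sets were. It was lower in Δapn1/pMAG than in Δapn1, where 1.52% were.

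**Figure D1:**
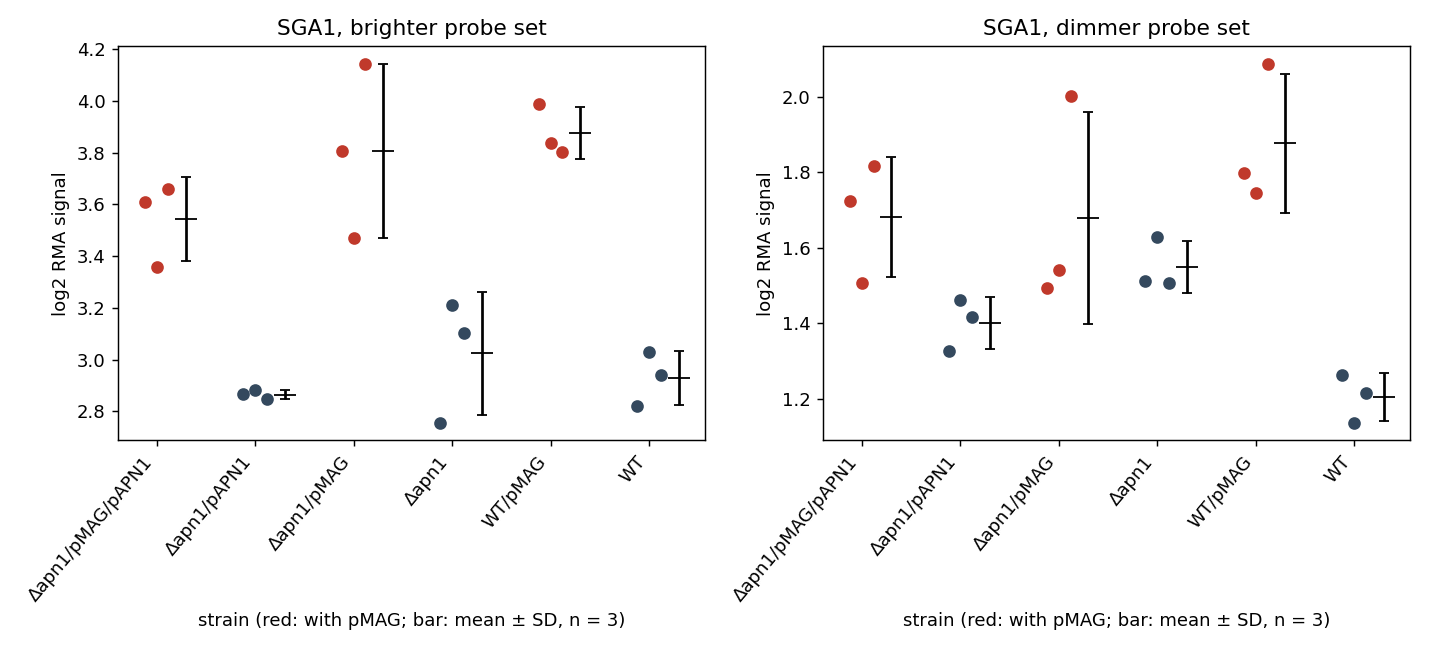
The log2 RMA signal of the 2 SGA1 probe sets is plotted for each array by strain, with the mean ± SD of n = 3 as a black bar and strains with pMAG in red. For the brighter probe set all red points (3.36 and above) sit over all dark points (3.21 and below), while for the dimmer one the red and dark points overlap.

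Averaged over the 3 backgrounds, SGA1 was 1.74-fold higher with pMAG (0.80 on the log2 scale, SE 0.093, 95% interval 0.60 to 1.00, limma adjusted p = 7.39e-04). At an adjusted p under 0.05, 0.83% of all probe sets were higher and 0.446% lower in this contrast, and SGA1 was 1 of 10 members to pass. Taken one at a time, the difference was 0.68 in Δapn1/pAPN1 (adjusted p = 0.367), 0.78 in Δapn1 (adjusted p = 0.102) and 0.95 in WT (SE 0.16, 1.93-fold, adjusted p = 0.0372 by limma), where 0.0615% of probe sets were called higher. The 3 differences share no arrays. On this probe set they were not distinguishable from each other by limma's interaction terms (-0.16 for Δapn1 against WT and -0.27 for Δapn1/pAPN1 against WT, adjusted p = 0.998 and 0.999). The call in WT was lost in 19 of 33 alternatives, with leaving out single arrays counted among them, with adjusted p between 0.0159 and 0.397, whereas the mean effect lost its call in 1 of 31. limma's F test over the 6 strains gave SGA1 an adjusted p of 0.0163, a level that 0.4% of probe sets reached and no other member did.

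The second SGA1 probe set was dimmer and gave a smaller difference. Its signals were 1.72, 1.51 and 1.82 in Δapn1/pMAG/pAPN1 against 1.33, 1.46 and 1.42 in Δapn1/pAPN1, 1.49, 1.54 and 2.00 in Δapn1/pMAG against 1.51, 1.63 and 1.51 in Δapn1, and 1.80, 1.75 and 2.09 in WT/pMAG against 1.26, 1.14 and 1.22 in WT. The groups overlapped in Δapn1 and were apart in the other backgrounds. Its mean effect of pMAG was 0.36 (SE 0.081, 1.28-fold, limma adjusted p = 0.0428), with 0.13 in Δapn1. Its WT mean of 1.21 lay below every array median.

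pAPN1 gave no call for SGA1. The difference was -0.26 (95% interval -0.61 to 0.08) for Δapn1/pMAG/pAPN1 against Δapn1/pMAG and -0.16 (95% interval -0.50 to 0.18) for Δapn1/pAPN1 against Δapn1. Both point estimates were negative and smaller than the pMAG differences, and the intervals include 0. All arrays with pAPN1 were in the low set of arrays, while the strains compared had arrays in both sets.

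Over the 18 arrays the genes whose signal was most like that of SGA1 were HUG1, an inhibitor of ribonucleotide reductase induced by DNA damage (Pearson r = 0.92, Spearman rho = 0.81), RTS3 (r = 0.91, rho = 0.82) and YPL088W (r = 0.90, rho = 0.85). Without the 2 arrays farthest from the SGA1 median r was 0.89, 0.87 and 0.90. The arrays share the strains, so these values describe a common order of strains, and the mean pMAG differences of the 3 genes were 4.21, 1.35 and 1.47.

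The genes of glycogen synthesis lay on the other side. With pMAG averaged over 3 backgrounds, the log2 difference was negative for all 4 of them, with a median of -1.01, against 0.00 over all probe sets tested. In WT it was negative for all 4 within the high set of arrays and positive for all 4 within the low set. In that low set WT and WT/pMAG had 1 array each. At the methods' thresholds (unadjusted p under 0.05 and at least 1.5-fold), GSY1 and GLC3 were lower, in a contrast where 1.58% of probe sets were; at an adjusted p none of the 4 passed. Over all 10 members 8 differences were negative and the median was -0.43.

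**Figure D2:**
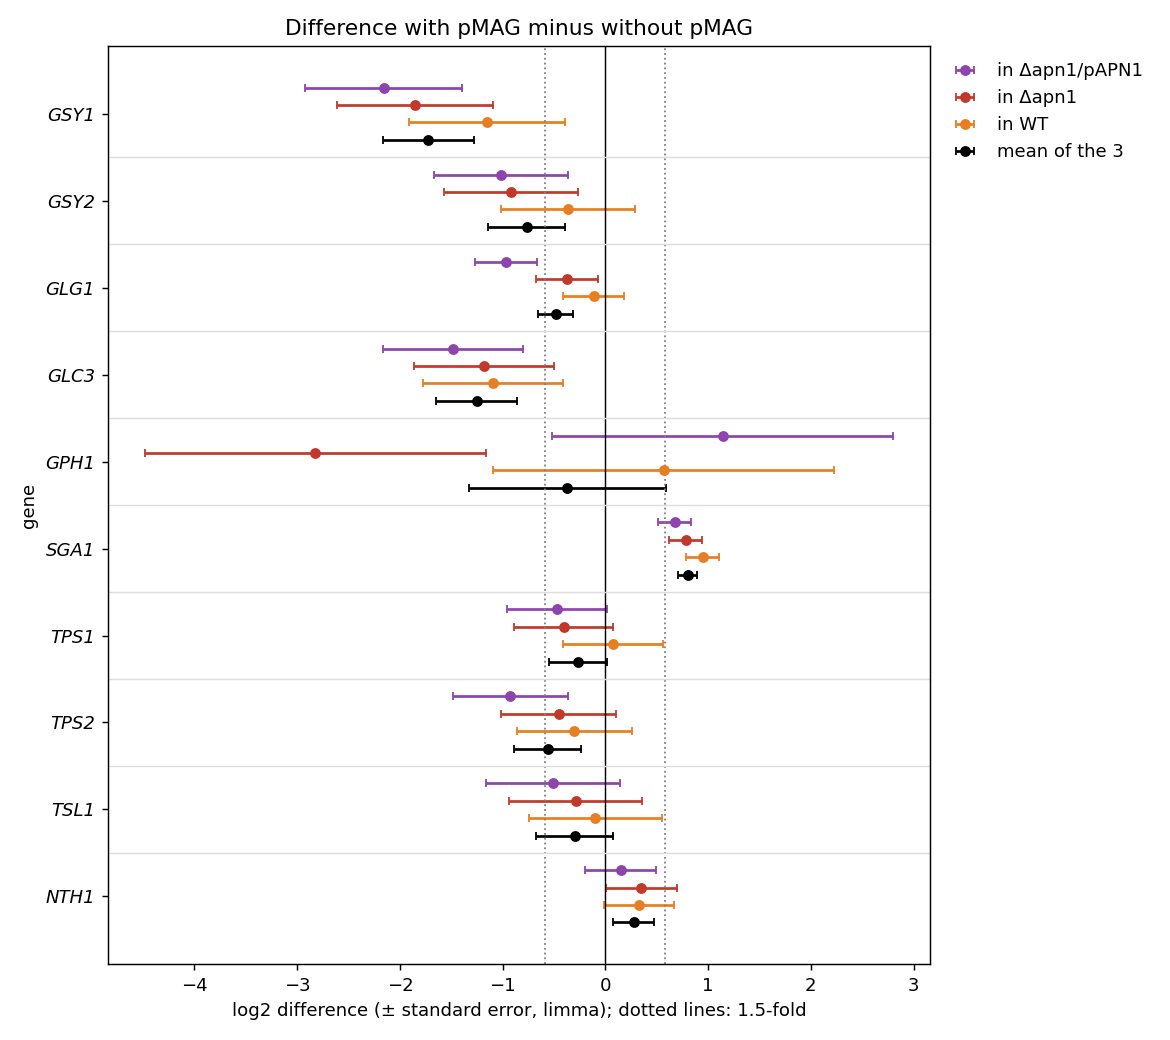
The log2 difference with pMAG minus without it is plotted for the 10 genes in each of 3 backgrounds and as their mean, with limma standard errors and dotted lines at 1.5-fold. SGA1 (mean 0.80) stands to the right with short bars, GSY1 (-1.72) and GLC3 (-1.25) to the left, and the bars of GPH1 span several log2 units.

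GSY1, 1 of the 2 glycogen synthases, had the most negative mean difference. Its signals were 2.63, 5.45 and 3.39 in Δapn1/pMAG/pAPN1, against 5.61, 5.63 and 6.70 in Δapn1/pAPN1; 3.35, 3.63 and 5.32 in Δapn1/pMAG, against 5.45, 6.19 and 6.22 in Δapn1; and 3.60, 5.03 and 3.53 in WT/pMAG, against 3.64, 6.09 and 5.87 in WT. With pMAG the groups lay apart in both apn1 backgrounds and overlapped in WT, where replicate 1 of WT read as low as the pMAG arrays. The share of all probe sets that lie apart with 3 arrays against 3 was not counted, for this gene or for any other pair of strains. The mean effect was a 3.30-fold decrease (-1.72, SE 0.44, 95% interval -2.66 to -0.78, limma adjusted p = 0.0701). It was -2.16 in Δapn1/pAPN1 (limma adjusted p = 0.868), -1.86 in Δapn1 (limma adjusted p = 0.529) and -1.15 in WT (limma adjusted p = 0.66). The difference in WT was -2.42 within the high set of arrays and 1.38 within the low set, where each strain had 1 array, so its sign depended on the set. The mean effect within the low set was -0.58.

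GLC3, the branching enzyme, had a lower mean with pMAG in every background. Its signals were 3.27, 6.41 and 3.29 in Δapn1/pMAG/pAPN1 against 5.73, 5.66 and 6.03 in Δapn1/pAPN1, 4.82, 3.91 and 5.60 in Δapn1/pMAG against 5.82, 6.18 and 5.88 in Δapn1, and 4.68, 5.64 and 3.74 in WT/pMAG against 5.51, 6.27 and 5.57 in WT. The groups lay apart only in Δapn1. The mean effect of pMAG was -1.25 (SE 0.39, 2.39-fold, limma adjusted p = 0.141). In Δapn1/pMAG/pAPN1, replicate 2 was the highest of the 18 arrays and replicates 1 and 3 were the lowest, so the strain had both ends of the range of the gene. The difference in WT was -1.71 within the high set of arrays and 0.13 within the low set, where each strain had 1 array.

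GLG1, the glycogenin that primes new chains, had its lowest mean in Δapn1/pMAG/pAPN1. It read 1.40, 1.98 and 0.88 in Δapn1/pMAG/pAPN1, against 2.23, 2.33 and 2.61 in Δapn1/pAPN1 and 1.74, 2.66 and 2.26 in WT. These values were apart from those of Δapn1/pAPN1 and overlapped those of WT, and the values of 1.40 and 0.88 lay below the array medians. It read 1.89, 1.92 and 2.35 in Δapn1/pMAG, against 2.27, 2.55 and 2.45 in Δapn1, and 1.96, 2.71 and 1.65 in WT/pMAG. The difference was -0.97 from Δapn1/pAPN1 (limma adjusted p = 0.643) and -0.80 from WT (SE 0.30, limma adjusted p = 0.565), and the mean effect of pMAG was -0.48 (limma adjusted p = 0.191). Whether the pMAG difference was greater in Δapn1/pAPN1 than in WT did not pass a test (-0.85, limma adjusted p = 0.999). In WT the pMAG difference was -0.66 within the high set of arrays and 0.97 within the low set, where each strain had 1 array. The mean effect within the low set was -0.05.

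GSY2, the synthase that makes most of the glycogen synthase activity in yeast, passed no call rule. It read 4.01, 7.21 and 4.38 in Δapn1/pMAG/pAPN1, 6.08, 6.17 and 6.39 in Δapn1/pAPN1, 5.60, 4.50 and 6.50 in Δapn1/pMAG, 6.34, 6.44 and 6.57 in Δapn1, 5.77, 6.67 and 5.30 in WT/pMAG, and 5.97, 6.58 and 6.29 in WT. The 9 arrays without pMAG stayed between 5.97 and 6.58, and those with it ran below and above this range. The mean effect of pMAG was -0.77 (95% interval -1.57 to 0.04, limma adjusted p = 0.349), and within the low set of arrays it was -0.38. In WT the pMAG difference was -0.90 within the high set and 0.70 within the low set, where each strain had 1 array.

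**Figure D3:**
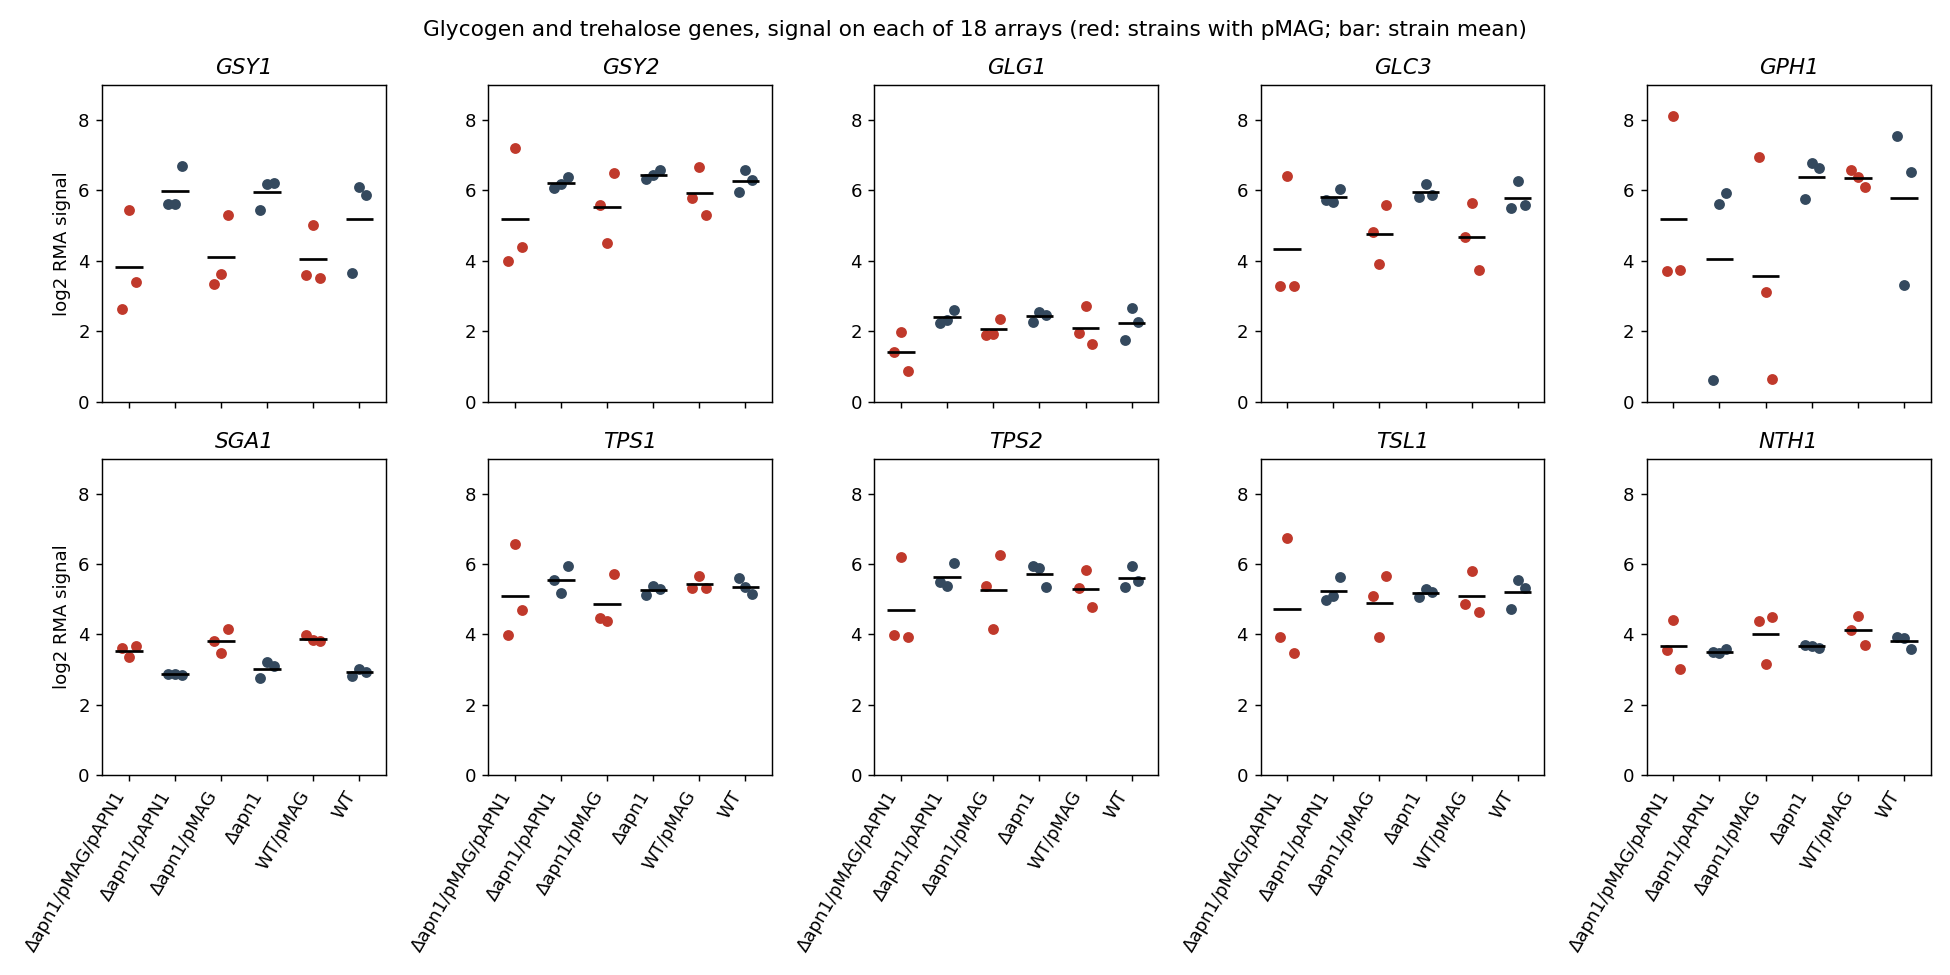
The log2 RMA signal of the 10 genes is plotted for each of the 18 arrays by strain, with black bars at the strain mean of 3 arrays and strains with pMAG in red. The red points of the synthesis genes are spread widely, most of all in Δapn1/pMAG/pAPN1, where GSY2 runs between 4.01 and 7.21, while the points of Δapn1 lie close together.

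GPH1, the phosphorylase that releases glucose 1-phosphate from glycogen, had the widest spread and no call. It read 3.72, 8.11 and 3.74 in Δapn1/pMAG/pAPN1, 0.61, 5.62 and 5.92 in Δapn1/pAPN1, 6.95, 3.12 and 0.65 in Δapn1/pMAG, 5.76, 6.78 and 6.64 in Δapn1, 6.59, 6.39 and 6.09 in WT/pMAG, and 7.53, 3.30 and 6.53 in WT. The values of 0.61 and 0.65 each stood over 4 log2 units below the median of the other arrays (6.09). Of the probe sets with 1 symbol, 19 had such an isolated drop on replicate 1 of Δapn1/pAPN1, 8 on replicate 1 of WT/pMAG, and 1 each on replicates 1 and 3 of Δapn1/pMAG. Without replicate 1 of Δapn1/pAPN1 the GPH1 difference of that strain from WT was -0.02 in place of -1.74, and without replicate 3 of Δapn1/pMAG the difference of that strain from WT was -0.75 in place of -2.22. The mean effect of pMAG on GPH1 was -0.37 with a 95% interval of -2.41 to 1.67, an interval that holds both large decreases and large increases. It was 0.12 without replicate 3 of Δapn1/pMAG and -0.95 without replicate 1 of Δapn1/pAPN1.

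The trehalose genes passed no call rule in any comparison. TPS1 read 3.99, 6.56 and 4.69 in Δapn1/pMAG/pAPN1, 5.54, 5.18 and 5.94 in Δapn1/pAPN1, 4.47, 4.38 and 5.71 in Δapn1/pMAG, 5.12, 5.38 and 5.28 in Δapn1, 5.31, 5.67 and 5.32 in WT/pMAG, and 5.61, 5.34 and 5.14 in WT. TPS2 read 3.98, 6.21 and 3.93 in Δapn1/pMAG/pAPN1, 5.48, 5.38 and 6.03 in Δapn1/pAPN1, 5.37, 4.16 and 6.27 in Δapn1/pMAG, 5.93, 5.89 and 5.34 in Δapn1, 5.31, 5.83 and 4.77 in WT/pMAG, and 5.36, 5.94 and 5.52 in WT. Both enzymes of the pathway thus had their lowest signals on replicates of Δapn1/pMAG/pAPN1. TSL1, the regulatory subunit, read 3.91, 6.75 and 3.49 in Δapn1/pMAG/pAPN1, 4.97, 5.08 and 5.64 in Δapn1/pAPN1, 5.10, 3.92 and 5.65 in Δapn1/pMAG, 5.05, 5.30 and 5.20 in Δapn1, 4.87, 5.79 and 4.63 in WT/pMAG, and 4.71, 5.55 and 5.32 in WT. NTH1, which cleaves trehalose to glucose, read 3.55, 4.41 and 3.01 in Δapn1/pMAG/pAPN1, 3.49, 3.46 and 3.57 in Δapn1/pAPN1, 4.38, 3.17 and 4.49 in Δapn1/pMAG, 3.70, 3.66 and 3.63 in Δapn1, 4.13, 4.54 and 3.71 in WT/pMAG, and 3.92, 3.90 and 3.58 in WT. All 4 genes overlapped in each pair of strains that differed only in pMAG. NTH1 was lower on all arrays of Δapn1/pAPN1 than on those of WT and of Δapn1, without a call. The mean effect of pMAG was -0.27 for TPS1 (95% interval -0.87 to 0.33), -0.56 for TPS2 (-1.25 to 0.13), -0.30 for TSL1 (-1.10 to 0.50) and 0.28 for NTH1 (-0.15 to 0.70). These intervals include a doubling or a halving only for TPS2 and TSL1.

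Set against wild type, members were called in the 3 strains with pMAG only. The 5 comparisons share the WT arrays, and the count in 1 strain was not tested against that in another. In Δapn1/pMAG/pAPN1, SGA1 was higher (0.61, adjusted p = 0.354 by limma) and GLG1 and GLC3 were lower at the methods' thresholds, at which 1.81% of probe sets were higher and 1.58% lower; GLC3 differed by -1.46 (limma adjusted p = 0.656), a call that was lost in 19 of 31 alternatives. The median over the members was -0.70, against 0.03 over all probe sets, and it was -0.29, -1.58 and -0.30 without replicate 1, 2 or 3 of the strain. In Δapn1/pMAG, SGA1 was higher (0.88, adjusted p = 0.0546 by limma) and no member was lower, with 2.03% of probe sets higher and 1.35% lower and a median of -0.43 over the members against 0.02. That median was -0.17 without replicate 2 of Δapn1/pMAG and -0.80 without replicate 3. In WT/pMAG, SGA1 was again the only member called, with 2.14% of probe sets higher and 3.86% lower, and the median over the members was -0.11 against 0.01.

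Without pMAG no member passed a call rule by limma, and on the probe set that stands for each gene none had an unadjusted p under 0.05 alone. In Δapn1/pAPN1 against WT 0 of 10 passed, where 2.51% of probe sets were higher and 0.8% lower, and the members' median was 0.02 against 0.03. For the arrays labelled Δapn1 against WT 0 of 10 passed, where 0.231% were higher and 0.2% lower, and the median was 0.14 against 0.00. GSY1 differed by 0.75 between Δapn1 and WT (95% interval -0.87 to 2.38), with WT values between 3.64 and 6.09, and by -0.03 without replicate 1 of WT. For SGA1 the difference between Δapn1 and WT was 0.09 on the brighter probe set (95% interval -0.25 to 0.44). On the dimmer one it was 0.34 (95% interval 0.04 to 0.64), with no overlap of the arrays, under 1.5-fold and with a limma adjusted p of 1.00.

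**Figure D4:**
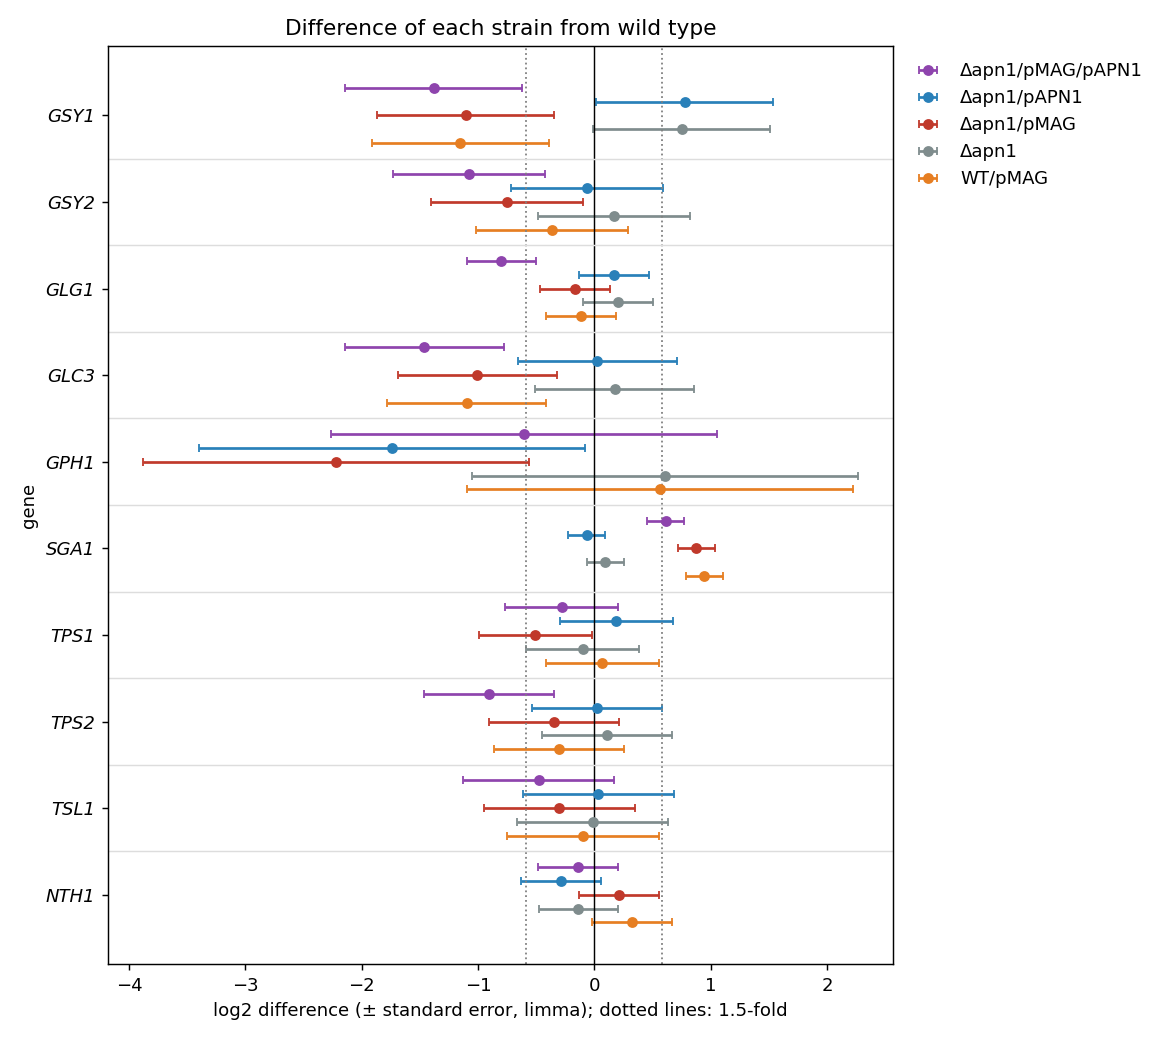
The log2 difference of each of 5 strains from WT is plotted for the 10 genes with limma standard errors, and dotted lines mark 1.5-fold. The points of Δapn1 and Δapn1/pAPN1 lie near 0 for most genes, and those of Δapn1/pMAG/pAPN1 are negative for 9 of the 10, SGA1 (0.61) being the other.

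Within the apn1 background the comparisons that change 1 plasmid gave these counts. For Δapn1/pMAG/pAPN1 against Δapn1/pAPN1, SGA1 was higher and GSY1, GLG1 and GLC3 were lower, at thresholds where 1.23% of probe sets were higher and 1.2% lower. This comparison lay wholly within the low set of arrays, and its GLC3 difference was -1.48 (limma adjusted p = 0.896), a call lost in 18 of 31 alternatives. For Δapn1/pMAG against Δapn1, SGA1 was higher and GSY1 lower, with 2.29% and 1.52% of probe sets in the same directions. Adding pAPN1 gave 0 of 10 calls by limma, also at an unadjusted p under 0.05 alone, with pMAG present, where 1.68% of probe sets were called in either direction, and 0 of 10 without it, where 1.6% were. The nearest to a call was GLG1, at -0.63 in Δapn1/pMAG/pAPN1 against Δapn1/pMAG (95% interval -1.27 to 0.01). All arrays with pAPN1 were in the low set, while Δapn1 and Δapn1/pMAG had arrays in both sets. The pAPN1 differences therefore cannot be fully told apart from differences between the array sets.

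Most members were high or low together on the same arrays of a strain. In Δapn1/pMAG/pAPN1, replicate 2 was the highest of the strain for 9 of the 10 genes and the lowest for SGA1, and it was the highest of all 18 arrays for 5. Replicates 1 and 3 were each the lowest of all 18 arrays for 4 genes. The median deviation of the 10 genes from their own means was -1.33, 1.01 and -1.45 on the 3 arrays of Δapn1/pMAG/pAPN1, and 0.12, 0.13 and 0.62 in Δapn1/pAPN1. It was -0.11, -1.17 and 0.52 in Δapn1/pMAG, 0.29, 0.48 and 0.24 in Δapn1, -0.10, 0.55 and -0.44 in WT/pMAG, and 0.01, 0.53 and 0.21 in WT.

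The spread between replicates was uneven among strains. The median SD over the 10 genes was 1.39 in Δapn1/pMAG/pAPN1, 0.276 in Δapn1/pAPN1, 0.864 in Δapn1/pMAG, 0.166 in Δapn1, 0.538 in WT/pMAG and 0.361 in WT. Of the 10 genes, 7 had their greatest SD in Δapn1/pMAG/pAPN1 and the other 3 in Δapn1/pMAG, and 7 had their smallest in Δapn1. Without replicate 2 of Δapn1/pMAG/pAPN1, 8 members in place of 3 passed the methods' thresholds against WT. GSY2, for example, differed by -2.09 in place of -1.08. Without replicate 3 of the same strain no member passed. The share of all probe sets that passed was not counted in these refits, so a change in the members cannot be told from one in all probe sets. The fit assumes 1 spread for all strains.

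**Figure D5:**
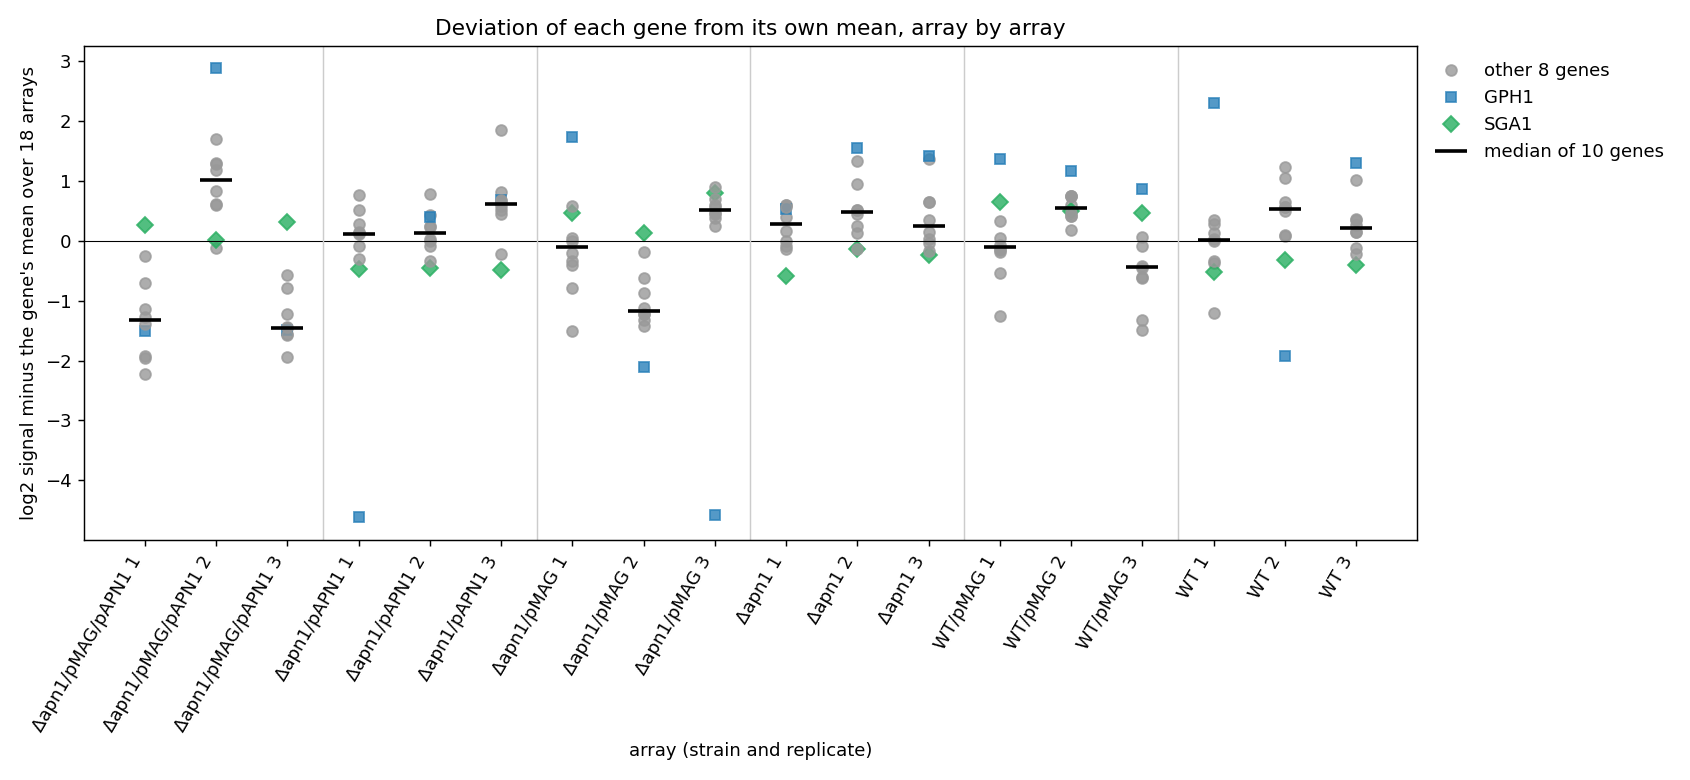
For each of the 18 arrays the log2 signal of the 10 genes is plotted as the deviation from the mean of that gene over all arrays, with a black bar at the median of the 10 genes. The bars of Δapn1/pMAG/pAPN1 lie at -1.33, 1.01 and -1.45, and SGA1 (green) stays near or above 0 on these arrays.

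GSY2, GLC3, TPS2 and TSL1 followed each other most closely. Over the 18 arrays Pearson's r with GSY2 was 0.95 for GLC3 (rho = 0.87), 0.95 for TPS2 (rho = 0.83) and 0.93 for TSL1 (rho = 0.91). Without the 2 arrays farthest from the median of GSY2, r was 0.90 for each of these 3 genes. For GLC3 the closest gene was GSY2, and for GSY1 and GLG1 it was RGI1 (r = 0.88 and 0.89). These values describe 18 arrays of 6 strains, which are not independent samples of 1 group.

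Of 10 markers of the stress response elements, 6 were higher with pMAG on average at the methods' thresholds, where 1.89% of all probe sets were. The mean of the 10 markers was 3.92, 5.27 and 3.71 on the arrays of Δapn1/pMAG/pAPN1, against 3.21 to 3.32 in Δapn1/pAPN1. It was 5.51, 3.57 and 5.08 in Δapn1/pMAG, against 3.14 to 3.68 in Δapn1, and 5.59, 4.82 and 6.70 in WT/pMAG, against 4.94, 3.70 and 3.44 in WT. At an adjusted p 2 of the 10 passed: HSP26 and HSP12, small heat shock proteins (4.01 and 2.86, limma adjusted p = 0.00204 and 0.0156). HSP12, HSP26, DDR2 and SSA3 kept their calls for the mean effect with any single array left out, whereas GRE1 (0.71, and 0.36 without replicate 3 of WT/pMAG) and ALD3 (0.80, and 0.56 without replicate 2 of Δapn1/pMAG/pAPN1) lost theirs. HSP42, HSP104, CTT1 and SPI1 passed neither rule. Against WT, 5 of the 10 were higher in WT/pMAG, where 2.14% of all probe sets were. Of these 5, HSP26 and SSA3 kept their calls with any single array left out. HSP26 was the 1 marker higher in Δapn1/pMAG/pAPN1 and in Δapn1/pMAG, where 1.81% and 2.03% of probe sets were. Both of these HSP26 calls were lost without replicate 3 of WT. HSP12 was lower in Δapn1/pAPN1 than in WT (-2.52), where 0.8% of probe sets were, a call lost without replicate 1 of WT. Replicate 2 of Δapn1/pMAG/pAPN1, where 9 of the 10 members peaked, also had the highest marker mean of its strain. Other strains differed from this. Replicate 3 of WT/pMAG had the highest marker mean of its strain (6.70) and the lowest signal of the strain for 9 members. Replicate 1 of WT (4.94) likewise had the lowest for 7. In Δapn1/pMAG the marker mean was highest on replicate 1 (5.51), while 9 members peaked on replicate 3 (5.08). The part of the stress markers in the members' values was not tested.

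Beside the members, 46 other genes of the pathway and its control were examined. They fell into 7 lists: other enzymes, sugar phosphate supply, protein phosphatase 1 subunits, kinases of glycogen synthase, the RAS and protein kinase A pathway, stress transcription factors, and regulators of trehalase with sugar uptake. In WT/pMAG against WT, UGP1, which makes the UDP-glucose used by both glycogen and trehalose synthesis, was lower (-1.73, SE 0.59, limma adjusted p = 0.318). The phosphoglucomutase genes PGM1 (-0.63) and PGM2 (-2.65) and the stress transcription factor gene MSN2 (-1.36) were lower too, and PDE1, a cyclic AMP phosphodiesterase, was higher (0.83). These were 1 higher and 4 lower of 46 at the methods' thresholds, where 2.14% of all probe sets were higher and 3.86% lower, and none passed at an adjusted p. MSN2 read 0.43, 3.02 and 2.73 in WT/pMAG, against 3.99, 3.01 and 3.26 in WT, and without replicate 1 of WT/pMAG its difference was -0.54, under the fold threshold. PGM1 differed by -0.29 without replicate 3 of WT/pMAG and PDE1 by 0.63 without replicate 2, and neither was called.

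UGP1 and PGM2 were also the only ones of the 46 called for the mean effect of pMAG (-0.83 and -1.51, limma adjusted p = 0.252 and 0.326). PGM2 read 0.57 on replicate 1 of WT/pMAG, an isolated drop from a median of 6.27 on the other arrays, and 5.45 and 6.10 on the other replicates, against 7.33, 5.89 and 6.84 in WT. UGP1 read 4.46, 7.12 and 7.32 in WT/pMAG, against 8.64, 7.82 and 7.64 in WT, with no overlap and the lowest value on the same replicate 1. Without that array the difference in WT was -0.91 for PGM2 and -0.81 for UGP1, and neither was called. The mean effects were then -0.93 and -0.52, and neither passed.

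In the other comparisons 0 to 2 of the 46 were called. In them 0.2% to 2.51% of all probe sets were called in each direction against WT or with pMAG added. With pAPN1 added, 1.68% were called in either direction with pMAG present and 1.6% without it. The counts of the 46 were not tested against these shares. PDE2, the high-affinity cyclic AMP phosphodiesterase, was higher in Δapn1/pMAG/pAPN1 than in WT (0.71) and than in Δapn1/pMAG (0.63), and the kinase gene YAK1 was lower than in WT (-0.86). GAC1, which brings protein phosphatase 1 to glycogen synthase, was higher in Δapn1/pAPN1 than in WT (0.91, limma adjusted p = 0.549) and lower in Δapn1/pMAG/pAPN1 than in Δapn1/pAPN1 (-1.11, limma adjusted p = 0.487), where MAL11, a sugar transporter gene, was also lower (-0.71). GLC7, the catalytic subunit of protein phosphatase 1, was lower in Δapn1 than in WT (-0.88) and higher in Δapn1/pAPN1 than in Δapn1 (0.84). It read 4.07, 3.71 and 4.03 in Δapn1/pAPN1, 1.94, 3.77 and 3.59 in Δapn1, and 4.24, 3.83 and 3.86 in WT. Without replicate 1 of Δapn1 the differences were -0.30 and 0.26, and both calls were lost. For Δapn1/pMAG no gene of the 46 was called against WT or against Δapn1. None of these calls passed at an adjusted p by limma. Without replicate 2 of WT the difference of PDE2 from WT was 0.41 and that of YAK1 was -0.67, and neither was called. In all these comparisons GAC1 was the only called gene of the 46 that kept its calls whichever array of the strains compared was left out.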

How the data were processed

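Total RNA from each culture of the 6 strains was measured on its own Yeast Genome S98 array (Affymetrix). The values deposited by the authors are log2 signals per probe set from RMA, which corrects background, quantile-normalizes and summarizes probes; its version is not given in the sources used here. The number of arrays limits the precision. The descriptions of replicates 2 and 3 of Δapn1 carry other numbers after the gene name, while their source label names apn1, and they were taken as Δapn1.

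Of 9335 probe sets, 60 controls, 328 with several symbols and 2443 without one were left out. The remaining 6504 were fitted in R 4.3.3 with limma 3.58.1 (lmFit, eBayes), with 1 mean per strain, all 18 arrays and 12 residual degrees of freedom. p was two-sided and adjusted by Benjamini-Hochberg over the 6504, with a threshold of 0.05. The methods' thresholds (p under 0.05 and at least 1.5-fold) were read from the same fit. The fit was tested on simulated data with known changes. These had independent arrays and 1 spread per probe set for all strains. The uneven spread seen among the strains was thus not covered by that test. Members and lists were chosen with earlier results of these data known, so they are described by counts and medians without a test of the list. All 10 members are named; of the other lists, genes past the methods' thresholds are; the brightest probe set stands for a gene.

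Same-numbered WT and Δapn1 arrays deviated from their strain means together (r = 0.372, 0.331 and 0.369 for replicates 1, 2 and 3); no other strain had all 3 above 0.1 with WT. Alternatives were the replicate block, the test named in the methods, fits restricted to the strains of a comparison, 2 further normalizations, leaving out dim probe sets, array weights, another eBayes setting, other sets of probe sets, the array sets as a block and leaving out each array. Chosen after seeing the data were each array set alone, leaving out each array for the called genes of the other lists, the other SGA1 probe set, and leaving out replicates 1 of Δapn1/pAPN1, Δapn1/pMAG and WT/pMAG, for isolated drops or an ACT1 signal 7.78 higher at the 3′ than the 5′ end (0.65 to 1.82 on the other arrays).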

Additional observations from a re-analysis of the deposited data

How the results depend on the processing

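Of 80 differences of the 10 genes, 14 passed the methods' thresholds and none of these changed sign under any alternative that could be run for it (12 to 15 for each) or with any of the 18 arrays left out in turn. Of the other 66, 43 changed sign and 31 passed the thresholds under some alternative. The count of members called in Δapn1/pMAG/pAPN1 against WT (3) was 2 in 9 alternatives, the methods' test among them, 6 with array weights, 4 with the replicate block, 1 within the low set of arrays, and 0 to 8 with 1 array left out (0 without its replicate 3, 1 without its replicate 1 or without replicate 2 of WT, 8 without its replicate 2). In Δapn1/pMAG against WT (1) it was 2 with array weights or without the 3 doubted arrays, 6 within the high set, 0 with the other SGA1 probe set, and 1 to 2 with 1 array left out; in WT/pMAG against WT (1) it was 7 within the high set and 1 to 2 with 1 array left out (2 without replicate 2 of Δapn1/pMAG/pAPN1 or replicate 1 of WT, for both counts, and for Δapn1/pMAG also without its replicate 1). Members at an adjusted p for the mean effect of pMAG (1, limma) were 2 with the replicate block, where GSY1 joined SGA1 (adjusted p = 0.0315), 3 with array weights, 0 within the low set, where SGA1 differed by 0.91 (adjusted p = 0.0816), and 1 to 4 with 1 array left out (4 without replicate 2 of Δapn1/pMAG/pAPN1, with GSY1, GSY2 and GLC3 added, and 2 without replicate 1 of WT). The replicate block also ended the adjusted call of SGA1 in WT/pMAG against WT (adjusted p = 0.0733), as did the methods' test (0.102). The members' median in Δapn1 against WT (0.14) was 0.33 within the low set and 0.0022 to 0.23 with 1 array left out (0.0022 without replicate 1 of WT); in WT/pMAG against WT (-0.11) it was 0.66 within the low set and -0.67 within the high set. The cause of these changes was not tested. The array sets hold 1 or 2 arrays of some strains, which limits what they can show. The share of all probe sets called was not counted under the alternatives, so these counts of members have no share to stand beside.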
